A study of Mus musculus with 12 samples.

Results

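Of the 4762 clusters of sequenced RNA listed for Smchd1 in mouse neural stem cells, 151 lay in genes of long non-coding RNAs, and Malat1 held 955 of their 3431 reads. A cluster entered the set when its exact sequence was listed at 1 locus and its midpoint fell, on either strand, inside a GENCODE vM21 gene of type lincRNA, antisense, processed_transcript, sense_intronic, bidirectional_promoter_lncRNA or TEC, and in no protein-coding gene. TEC loci are transcripts that the annotators marked as still to be experimentally checked. AY036118, Gm42418, Snhg14 and D130009I18Rik were left out. The 151 clusters made up 4.58% of the 3298 clusters with a sequence listed once and 3.17% of all clusters, and held 0.619% of all reads. They fell in 137 genes on 20 chromosomes.

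The series measured RNA by PAR-CLIP, in which cells take up 4-thiouridine, light at 365 nm joins the labelled RNA to bound protein, and the RNA recovered with that protein is sequenced. The neural stem cells were derived from female C57BL/6 embryos at E14.5 (embryonic days). All 3 groups share the labelling, 24 hours with 4-thiouridine at 100 µM, and a stated light dose of 0.15 J/cm2. The 3 groups had 4 libraries each: Smchd1GFP/GFP, homozygous for a GFP-tagged Smchd1 allele, crosslinked; Smchd1GFP/GFP titled as not crosslinked, although its protocol text also states irradiation; and untagged Smchd1+/+, crosslinked. The list gives 1 read count per cluster and no value per library, so the groups could not be compared, no value has a replicate error, and whether a cluster also had reads in the control libraries is not known. Of 12 neural stem cell markers 1 had a cluster, Slc1a3 with 15 reads, as did 1 of 5 neuron markers, Map2 with 72 reads, and 0 of the 4 oligodendrocyte, 4 astrocyte and 4 microglia markers. Over all 22028 protein-coding genes 1517 (6.89%) had a cluster, so these lists of 4 to 12 genes are too short to be set apart from that share. The counts do not measure expression, and the labelled cell type could not be checked with them.

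Long non-coding RNAs are transcribed from their own genes, often spliced, and not translated. Many stay in the nucleus: Malat1 is an abundant RNA of nuclear speckles, and others, such as Xist and Firre, act on or at chromatin. Smchd1 is a chromatin protein needed for stable silencing of the inactive X chromosome and of some imprinted and clustered genes.

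The clusters of Malat1 are shown first because that gene had more clusters and more reads than any other in the set. The first sequence joins 2 clusters that abut on opposite strands at chr19:5802327-5802494 (mm10), written on the Malat1 strand, the minus strand, with the 4 bases at their joint in capitals. The others are written on the strand of the cluster with the starting AC in capitals, except the second, where capitals mark a stretch of 36 bases that also aligned to transcripts of 235 other genes.
Malat1 joint: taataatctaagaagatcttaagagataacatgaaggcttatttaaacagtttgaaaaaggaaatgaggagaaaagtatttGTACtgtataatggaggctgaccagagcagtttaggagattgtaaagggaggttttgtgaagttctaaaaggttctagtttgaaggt
Malat1 chr19:5802081-5802164, minus: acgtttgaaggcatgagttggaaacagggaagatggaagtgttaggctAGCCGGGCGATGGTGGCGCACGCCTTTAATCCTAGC
Malat1 chr19:5798367-5798452, minus: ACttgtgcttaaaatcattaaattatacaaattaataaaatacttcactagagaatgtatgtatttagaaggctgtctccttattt
Malat1 chr19:5801831-5801916, plus: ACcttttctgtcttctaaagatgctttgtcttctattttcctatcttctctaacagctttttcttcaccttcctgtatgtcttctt
Malat1 chr19:5797314-5797397, plus: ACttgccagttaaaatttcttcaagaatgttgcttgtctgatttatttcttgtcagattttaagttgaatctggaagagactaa
Malat1 chr19:5798983-5799068, plus: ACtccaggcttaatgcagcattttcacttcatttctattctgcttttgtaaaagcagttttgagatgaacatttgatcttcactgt

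Malat1 (ENSMUSG00000092341.3, chr19:5795690-5802672, minus strand) held 7 clusters, all in the single exon of its transcript of 6983 bases. Its 955 reads were 27.8% of the reads of the set and 80.3% of those in exons. On the gene's strand, 3 clusters had 262, 126 and 96 reads, in all 484. On the opposite strand 4 clusters had 403, 34, 23 and 11 reads, in all 471, so 49.3% of the reads of the locus were not on the strand of the annotated RNA. Clusters opposite to the gene were not particular to Malat1. Counted by clusters rather than reads, they were 63.3% in protein-coding exons and 52.4% in introns of the set. Within the first 842 bases of the transcript lay 4 of the 7 clusters, among them the 3 with the most reads. The clusters at 262 and 126 reads also lay in an exon of Gm37376, a TEC locus on the other strand (chr19:5801941-5802393), and were set aside from the counts by strand below. The stretch in capitals at the 3′ end of the cluster with 126 reads, too short to be counted as a copy by the rule used for the set, reads like the start of a B1 short interspersed repeat, a common mouse element. No repeat annotation was used. The cluster with 11 reads overlapped the small RNA annotation Gm27694 within Malat1, and 63 of its bases aligned to 1 other gene, at 60 or more bases and 80% or more identity.

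**Figure D1:**
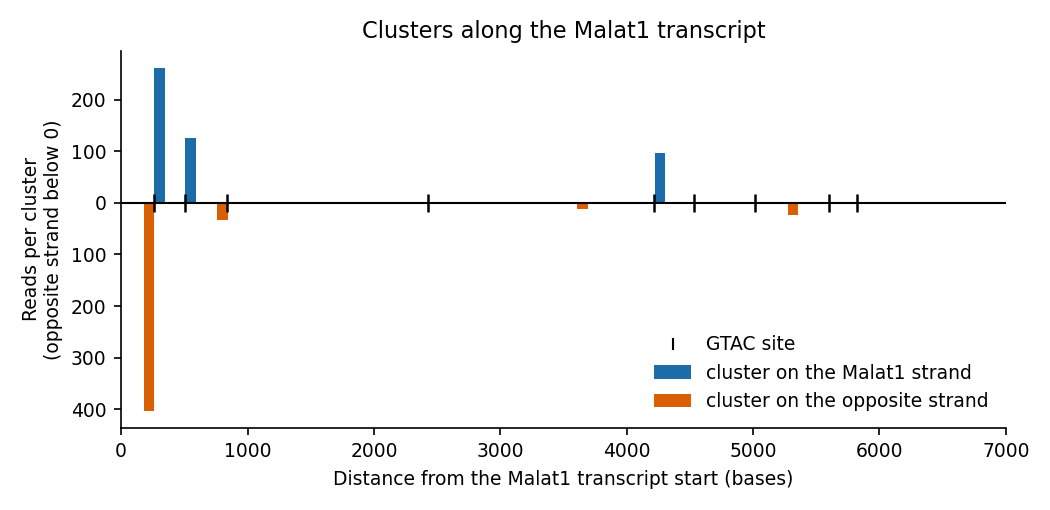
Reads per cluster (vertical axis, opposite strand drawn below 0) against distance from the Malat1 transcript start in bases. Each bar spans 1 cluster, blue on the Malat1 strand and orange on the opposite strand, and black ticks are the 9 GTAC sites; the 403 and 262 reads meet at the first site, and no cluster begins at the last 4 sites.

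Malat1 cluster ends were read against the transcript. The transcript held 9 GTAC sites, at bases 260, 507, 841, 2431, 4219, 4536, 5017, 5601 and 5823, and GTAC reads the same on both strands, so each site has a side on either strand where a cluster could begin with its AC. Of these 18 sides 5 had a cluster, at 4 sites. At base 260 both sides had one, with 403 and 262 reads, which is the joint shown above. The sites at 507 and 4219 had a cluster on the Malat1 strand only, with 126 and 96 reads, and that at 841 on the opposite strand only, with 34. The remaining 2 clusters, with 23 and 11 reads, began with AC but followed TTCC and TTTT. The clusters that began at a GTAC site were thus the 5 of the 7 with the most reads. The cause of these ends was not tested.

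The same joint occurred in Gm31752, a lincRNA gene on chromosome 5, at chr5:18488058-18488226, where an intronic pair had 11 and 11 reads. It is shown on the gene's strand, the minus strand, with GTAC in capitals. In Gm15232 on the X chromosome, an exonic pair of 13 and 9 reads faced each other instead and overlapped by 15 bases, so that together they cover 156 bases at chrX:167088719-167088874, shown on the gene's strand, the minus strand, with the outer ends in capitals.
Gm31752 joint: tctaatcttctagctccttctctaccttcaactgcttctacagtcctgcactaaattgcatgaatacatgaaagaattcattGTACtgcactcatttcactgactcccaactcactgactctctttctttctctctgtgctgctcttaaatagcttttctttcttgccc
Gm15232 pair: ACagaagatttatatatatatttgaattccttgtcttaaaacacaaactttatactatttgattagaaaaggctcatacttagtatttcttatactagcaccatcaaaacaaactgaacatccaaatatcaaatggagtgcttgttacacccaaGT

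In the whole list 38 pairs of clusters abutted on opposite strands in this way, 27 of them with both sequences listed once. A further 4 pairs of plus-strand and minus-strand starts lay within 10 bases of each other at another spacing. Of the set, 140 of 151 clusters (92.7%, 95% Wilson interval 87.4 to 95.9) began with AC, and 0 held GTAC inside, against 18 of 1645 (1.09%) in protein-coding genes and 4 of 1418 (0.282%) between genes. After AC the next base was T in 75 of the 140. Of 21 exonic clusters with known upstream sequence 20 began with AC, and 15 of these followed GT. Outside Malat1, those on the gene's own strand lay in 8430419K02Rik, 4930423D22Rik, Gm9947, Gm11292 and Gm15232. Those opposite to the gene lay in Gm44742, Gm42653, Gm43666, Gm37985 and Gm2415.

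Sox2ot, the host RNA within which the stem cell factor Sox2 is encoded, had 1 cluster with 19 reads at chr3:34361298-34361382, on its own strand and in an intron of the gene (ENSMUSG00000105265.4, chr3:34104270-34682619, plus strand). It is among the 11 clusters that did not begin with AC, as its sequence shows, and no copy of it was found elsewhere. Its 19 reads were above the median of the set, 12 (quartiles 9 and 17, range 5 to 403).
Sox2ot: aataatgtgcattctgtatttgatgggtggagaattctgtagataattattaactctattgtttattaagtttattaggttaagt

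Other well-known long non-coding RNAs were counted by lists. Speckle and paraspeckle RNAs had 1 of 2, Malat1, while Neat1 had 0 clusters. X inactivation RNAs had 1 of 5, Firre, with Xist, Tsix, Jpx and Ftx at 0. Neural RNAs had 1 of 11, Sox2ot, and a further cluster in Mir99ahg, with 66 reads, had a sequence listed at several loci and so is not in the set. Imprinted domain RNAs, among them H19, Meg3 and Kcnq1ot1, had 0 of 8, and snoRNA hosts, among them Gas5 and Snhg1, had 0 of 12, of which Snhg11 is annotated as protein-coding. Snhg14, the host RNA of the imprinted Snrpn-Ube3a domain, was left out of the set and is on neither list. These counts do not cover it. Of 10 further RNAs, 1 had a cluster: Gm26917, which lies just before the annotated ribosomal RNA CT010467.1 on chromosome 17, with 27 reads at chr17:39843455-39843537, in its exon and on the opposite strand. That cluster began with TT and had 63.9% G and C, the highest of the set, whose median was 39.3%. Over all 13335 annotated genes of these types, 137 (1.03%) had a cluster of the set. The lists are short, so no list is set apart from that share.

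Firre and 4933407K13Rik are shown because both lie at known landmarks of the inactive X chromosome. Firre is an X-linked RNA of a tandem repeat locus that helps to place the inactive X in the nucleus, and 4933407K13Rik is annotated at Dxz4, the tandem repeat locus at the boundary of the large chromatin domains of the inactive X. The second gene was singled out after its values were seen. Capitals mark the starting AC.
Firre chrX:50630358-50630443, plus: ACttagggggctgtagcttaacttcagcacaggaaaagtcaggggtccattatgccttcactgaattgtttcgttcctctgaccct
4933407K13Rik chrX:75726974-75727059, plus: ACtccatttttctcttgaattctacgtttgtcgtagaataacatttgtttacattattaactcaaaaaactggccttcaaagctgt

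Both clusters lay opposite to their gene. Firre had 21 reads in an intron and 4933407K13Rik had 15 in an exon. For neither sequence was a copy found in the list or in transcripts of other genes. The genome was not searched, so copies within these repeat loci could have been missed. In all, 8 clusters of the set lay on X, in 7 genes (5.30% of the set, interval 2.71 to 10.1), with 7 to 43 reads each. The X share was 3.53% (interval 2.74 to 4.53) for clusters listed once in protein-coding genes and 7.55% (interval 6.28 to 9.04) between genes, and the interval of the set spans part of both. On X, 5 clusters were opposite to their gene and 3 on its strand. The one with the most reads was in an intron of 1700111N16Rik, with 43. Copies in other genes were found for 2 of the 8, a cluster in 2010204K13Rik with 8 reads (3725 genes) and one in Gm14661 with 9 reads (11 genes). Whether the reads of these 2 came from X was not tested.

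Outside Malat1, 3 clusters had over 100 reads, and each was close to a sequence listed elsewhere. Each is shown with 1 such copy, and bases that differ are in capitals. Positions are counted from 1 at the 5′ end of the cluster in the gene.
Gm19951: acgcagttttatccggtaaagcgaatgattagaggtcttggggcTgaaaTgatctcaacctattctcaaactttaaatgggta
Copy on chromosome 6: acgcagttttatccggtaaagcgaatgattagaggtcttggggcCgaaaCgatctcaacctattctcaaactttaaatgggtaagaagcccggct
Gm44693: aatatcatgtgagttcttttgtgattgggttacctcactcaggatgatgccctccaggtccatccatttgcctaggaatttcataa
Copy on chromosome X: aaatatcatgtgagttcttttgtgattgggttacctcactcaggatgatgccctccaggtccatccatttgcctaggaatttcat
4930557F08Rik: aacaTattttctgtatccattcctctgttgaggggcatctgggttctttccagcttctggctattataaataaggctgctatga
Copy on chromosome Y: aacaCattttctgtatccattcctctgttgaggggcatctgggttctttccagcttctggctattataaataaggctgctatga

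The cluster of the lincRNA gene Gm19951 (chr12:99645448-99645530, intron, own strand) had 257 reads. Its copy at chr6:44793118-44793212 had 5671 and differed at T45C and T50C over 83 bases. That of Gm44693 (chr8:5438050-5438135, intron, own strand) had 192 reads, and its copy at chrX:83089975-83090059, with 194, was equal over the 84 bases they shared. The cluster of 4930557F08Rik (chr15:15801089-15801172, intron, opposite strand) had 164 reads, and a copy at chrY:11146688-11146771, with 2450, differed at T5C. The cells were derived from female embryos, which carry no Y chromosome, so those 2450 reads cannot be assigned to the listed Y position. In the list the cluster of 4930557F08Rik had 167 near copies on 20 chromosomes. In each of the 3 substitutions the cluster in the gene has T and the copy shown has C, a pattern noticed after the sequences were compared. It rests on the copies picked to be shown, and Gm19951 had 5 near copies in the list. Another near copy of 4930557F08Rik, the cluster of Gm48845 with 11 reads, has T at the same position and differs elsewhere. Whether the pattern holds over the other copies was not tested. As these copies show, sequence listed once was not sequence present once. The reads of the clusters in Gm19951, Gm44693 and 4930557F08Rik cannot be told apart from reads of their copies.

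Copies were then counted for the whole set. By a word of 30 bases shared on either strand with another listed cluster, 13 clusters had a relative in the list, with 750 reads, all of them in introns. By alignment over 60 or more bases at 80% or more identity, 21 had a relative in the list and 40 in transcripts of a gene elsewhere, 32 of these in 10 or more genes. Relatives with a sequence listed on chromosome 18 were not counted among those of the 21. By any of these measures 41 clusters had a copy (6 to 257 reads, median 11), 38 of them in introns. The other 110 had none by these measures, 6 in Malat1 and 104 in other genes. The genome was not searched, so copies outside the list and outside transcripts of other genes could not be found. Those 104 had 5 to 43 reads each, with a median of 12 and a sum of 1366. Without copies and without Malat1, no cluster of the set had over 43 reads.

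**Figure D2:**
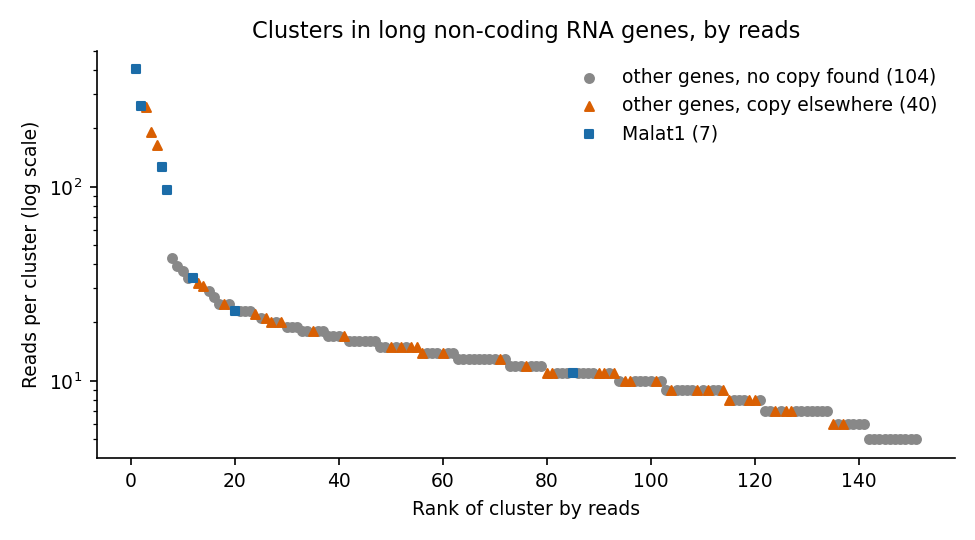
Reads per cluster on a log scale against rank for the 151 clusters. Blue squares are the 7 clusters of Malat1, orange triangles the 40 clusters of other genes with a copy elsewhere and grey circles the 104 of other genes with no copy found. The 104 reach 43 reads at most, below 4 Malat1 clusters and 3 clusters with copies.

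Outside Malat1, the 3 clusters with the most reads among those with no copy found lay in introns of little-known genes. 1700111N16Rik, an antisense gene on X that overlaps 1700020N15Rik, had 43 reads on its own strand at chrX:69963124-69963209. Gm28526, a lincRNA gene on chromosome 13, had 39 on the opposite strand at chr13:80000044-80000129, and Gm29502, 14006 bases from the zinc transporter gene Slc30a5, had 37 on the opposite strand at chr13:100931860-100931945. Their sequences share the AC start, in capitals, with those of Malat1.
1700111N16Rik: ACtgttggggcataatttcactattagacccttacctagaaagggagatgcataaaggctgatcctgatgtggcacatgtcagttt
Gm28526: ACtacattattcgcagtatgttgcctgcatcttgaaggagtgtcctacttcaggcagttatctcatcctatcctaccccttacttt
Gm29502: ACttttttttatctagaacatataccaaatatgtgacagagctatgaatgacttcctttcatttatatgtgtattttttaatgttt

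Besides Malat1, Gm26861 was the other gene with 3 clusters. It is a long antisense gene (439908 bases) that overlaps Chrm3, a muscarinic acetylcholine receptor gene, and had 34 and 10 reads on the opposite strand and 5 on its own. The cluster with 10 reads shared 30 bases with 73 other clusters. In 120 genes there was 1 cluster and in 15 there were 2. D5Ertd615e, 9619 bases from the dihydropteridine reductase gene Qdpr, had 23 and 19 reads, both on its strand and in introns. Gm14066, which overlaps Sptlc3, a gene of sphingolipid synthesis, had 20 and 17, both on the opposite strand, the former with copies in 177 other genes. C230088H06Rik and Gm26624, which overlap on opposite strands of chromosome 4 among zinc finger genes, shared a pair of clusters with 18 and 13 reads. Gm20756 had 17 and 14 reads on its strand, with copies in 298 and 225 other genes. Gm49692 and Gm16863 had 32 and 31 reads on the opposite strand in introns, and both clusters had copies in other genes. Of the 17 genes with 2 or more clusters, 7 had them on both strands, 4 on their own strand only and 6 on the opposite strand only.

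By annotated type, lincRNA genes led with 90 of 5851 genes (1.54%), followed in number by processed_transcript genes with 22 of 789 (2.79%), antisense genes with 19 of 2959 (0.642%), TEC loci with 5 of 3219 (0.155%) and 1 of 190 bidirectional promoter genes (0.526%). Sense intronic genes had 0 of 327. Stretches of any of these genes inside a protein-coding gene could hold no cluster of the set. The shares therefore depend in part on how far a type lies within protein-coding genes, and they were not compared. Genes with a cluster had a median span of 48464 bases against 3708 for all genes of these types, and 47 of the 137 (34.3%) spanned over 100 kb against 2.76%. A longer gene offers more positions for a midpoint to fall in.

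Most of the set lay in introns. Exons held 23 clusters (15.2%, interval 10.4 to 21.8), against 433 of 1645 (26.3%, interval 24.3 to 28.5) among clusters listed once in protein-coding genes. The difference was -11.1 percentage points (95% Newcombe interval -16.4 to -4.18, two-sided Fisher exact test, adjusted p = 0.0164), with p-values adjusted by Benjamini-Hochberg over 7 comparisons. The protein-coding clusters here include those of the mitochondrial genome. Without it 389 of 1601 were in exons, and the difference was -9.07 points (Fisher exact adjusted p = 0.0397). This exon share difference was also tested in other ways. It fell short of the threshold of 0.05 with clusters of 10 or more reads (exact adjusted p = 0.11) and with the 4 genes that were left out put back (exact adjusted p = 0.203), and over all alternatives the adjusted p ran from 0.000147 to 0.203 (Fisher exact tests). Exons made up 8.75% of the span of these genes outside protein-coding genes and 9.23% of the span of protein-coding genes. The tests and intervals cover counting error only and take clusters as independent, although those of 1 gene share a locus.

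**Figure D3:**
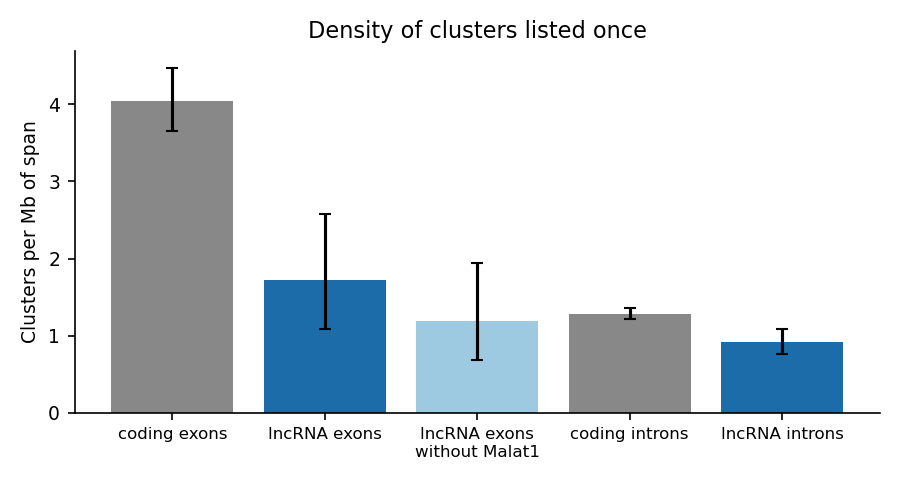
Clusters listed once per Mb of annotated span, by exons and introns of protein-coding genes (grey) and of long non-coding RNA genes (blue, pale without Malat1), with 95% Poisson intervals as bars. Coding exons stand at 4.05 per Mb, and the other 4 values at 0.915 to 1.72.

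Per Mb of exon, the set had 1.72 clusters (exact 95% Poisson interval 1.09 to 2.57), and 1.19 (interval 0.68 to 1.94) without Malat1, against 4.05 (interval 3.66 to 4.47) in exons of nuclear protein-coding genes. In introns it had 0.915 (interval 0.764 to 1.09) against 1.28 (interval 1.21 to 1.36). These intervals do not overlap between the 2 classes. The rule leaves 4 genes out of the set but no nuclear gene out of the protein-coding class. With those 4 genes put back, 31 of 160 clusters lay in exons, and densities were not computed for that case. Of 23 exonic clusters 16 lay outside Malat1, with 6 to 27 reads and a median of 13.5, and the 128 intronic ones had 5 to 257 reads with a median of 11. The exonic one on its own strand with the most reads outside Malat1, singled out after its values were seen, was in 8430419K02Rik, 5508 bases from the homeobox gene Meis1, with 25.

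By strand, 14 of 21 exonic clusters (66.7%, interval 45.4 to 82.8) lay opposite to the gene, close to the 274 of 433 (63.3%, interval 58.6 to 67.7) in protein-coding exons. The difference of 3.39 percentage points (interval -18.4 to 20.2, Fisher exact adjusted p = 0.821) did not pass. Its direction turned without Malat1 (-0.78), without TEC loci (-10.6) and with 1 cluster per gene (-0.54). In introns 65 of 124 (52.4%, interval 43.7 to 61.0) lay opposite, against 587 of 1198 (49.0%) in protein-coding genes (difference 3.42, interval -5.76 to 12.5, Fisher exact adjusted p = 0.594). By reads, the 59 intronic clusters on the gene's strand had 1122 and the 65 opposite had 1057. The strand of an exonic cluster was taken from the genes in whose exons its midpoint lay. Clusters with such exons on both strands (2), and intronic clusters in genes of both strands (4), were set aside. Under this rule 1 exonic cluster with 14 reads, opposite to Gm44509 but on the strand of A230056P14Rik, in whose intron it also lay, was counted as opposite. With any cluster in genes of both strands set aside, 13 of 20 were opposite against 269 of 426, a difference of 1.85 points.

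**Figure D4:**
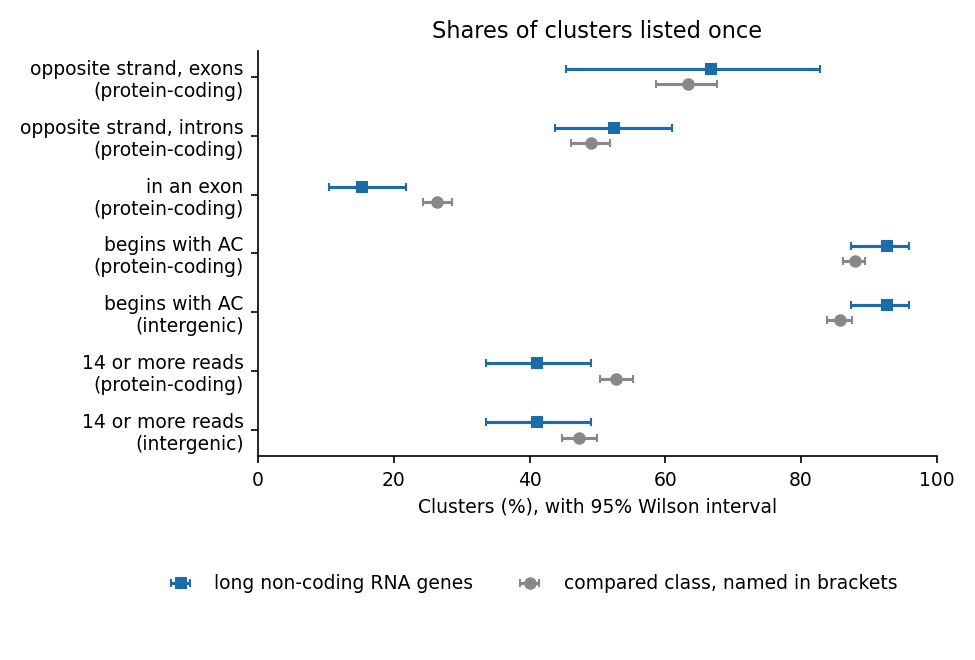
Shares of clusters listed once, in percent with 95% Wilson intervals, for the set (blue squares) and the class named in brackets (grey circles). The exon share of the set, 15.2%, lies below the 26.3% of protein-coding genes, while both shares on the opposite strand have overlapping intervals.

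Read counts per cluster were low. Of the set 62 clusters (41.1%, interval 33.5 to 49.0) had 14 or more reads, the median of all clusters listed once, against 868 of 1645 (52.8%) in protein-coding genes (difference -11.7 points, interval -19.6 to -3.37, Fisher exact adjusted p = 0.0224). That difference did not pass with 1 cluster per gene (exact adjusted p = 0.0576), with clusters of 10 or more reads (exact adjusted p = 0.136) or with the 4 left-out genes put back (exact adjusted p = 0.203), whose 9 clusters had 39863 reads. With those 4 genes put back, 71 of 160 clusters had 14 or more reads. The rule's choice of genes thus sets part of this difference. Over all alternatives its exact adjusted p ran from 0.00586 to 0.203. Against 671 of 1418 intergenic clusters (47.3%) the difference was -6.26 points (interval -14.2 to 2.12, Fisher exact adjusted p = 0.204). The AC start was at 85.8% in intergenic clusters, a difference of 6.96 points (interval 1.40 to 10.7, Fisher exact adjusted p = 0.0397) that passed but was lost in 6 of the alternatives tried. It did not pass without TEC loci (exact adjusted p = 0.0526), without Malat1 (0.0687), with 10 or more reads (0.136), with 1 cluster per gene (0.192) or with the 4 left-out genes put back (0.535). Among clusters with no shared word of 30 bases the difference was 0.81 points (exact adjusted p = 0.99, range over all alternatives 0.0396 to 0.99), and 14.8% of intergenic clusters against 8.61% of the set had such a word. Against protein-coding genes (87.9%) it did not pass (difference 4.81 points, interval -0.68 to 8.39, Fisher exact adjusted p = 0.149).

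Base composition of the set was 33.4% T, 27.5% A, 19.8% C and 19.2% G, against 31.5% T in clusters of protein-coding genes and 32.0% between genes. T is the base that 4-thiouridine replaces. Single clusters ranged from 15.3% to 55.8% T, the highest in Gm16863. In Malat1 the 4 clusters opposite to the gene had 40.5% to 51.2% T and the 3 on its strand 21.4% to 38.4%, against 28.9% T and 28.6% A in the whole transcript. The list holds no count of T-to-C changes, so crosslinked bases could not be identified.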

How the data were processed

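PAR-CLIP was done on 12 libraries in 3 groups of 4. The submitters' processing notes name TopHat2 2.1.0, bcl2fastq and, as the genome build, mm10. The deposited values are raw read counts per cluster in 1 list for the whole series. Not given in the sources used here were the cluster caller, its thresholds and the libraries it took, and depth per library is not known. The edgeR comparison planned for counts per library could not be made.

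Positions were read as 1-based. Annotation and transcript sequence came from GENCODE vM21 on GRCm38, the assembly of mm10 (upstream bases of exonic clusters). Copies were sought with blastn 2.17.0 (E-value limit 1e-5). Shares were compared with Fisher exact tests (scipy 1.17.1) and Newcombe intervals (statsmodels 0.14.6), and these steps were tested on simulated data. Intervals cover counting error only.

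The set, the lists and the tests were chosen with earlier results of these data known. Named genes were Malat1, Sox2ot, the 15 genes with the most reads (16 with ties), genes with 3 or more clusters and list members with a cluster. Others named were chosen after their values were seen.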

Additional observations from a re-analysis of the deposited data

How the results depend on the processing

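The 3 comparisons of shares that passed kept their call in 13 of 24 alternatives and lost it in 11. The 4 that did not pass gained no call in 34 alternatives, and 3 of those changed sign. The exon share difference from protein-coding genes no longer passed with 10 or more reads (-11.1 points) or with the 4 left-out genes put back (-6.95). The AC-start difference from intergenic clusters no longer passed without shared words of 30 bases (0.81 points), with 10 or more reads (7.28), without TEC loci (6.81), with 1 cluster per gene (5.78), without Malat1 (6.61) or with the 4 genes put back (3.62). The difference in clusters with 14 or more reads from protein-coding genes no longer passed with 10 or more reads (-9.16), with 1 cluster per gene (-11.2) or with the 4 genes put back (-8.39). The exonic opposite-strand difference changed sign without TEC loci (-10.6), with 1 cluster per gene (-0.54) and without Malat1 (-0.78), and was 1.85 with any cluster in genes of both strands set aside. Without Malat1 the reads of the set were 2476. A limit of 10 reads or 1 cluster per gene leaves fewer clusters to test; other causes were not tested. The alternatives without Malat1, with the 4 genes, without the mitochondrial genome and with genes of both strands set aside were added after the data were seen. No paired analysis was possible because the list has no column per library, and for the same reason no replicate could be left out. Values for the set rest on 3431 reads in all, and reads below the unknown calling threshold could not be seen.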

Other observations

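Some long non-coding RNAs named for a neighbouring gene were singled out after their values were seen. Junos, antisense to the immediate early factor gene Jun, had 1 intronic cluster with 8 reads on the opposite strand, and its sequence had copies in 39 other genes. Hand2os1, which overlaps the heart and limb factor gene Hand2, had 8 reads and Tbx3os1, which overlaps the T-box factor gene Tbx3, had 6, both in introns on the gene's own strand and with no copy found. A cluster with 20 reads lay in introns of both Gad1os and Erich2os, opposite to both. Gad1os is named for Gad1, which encodes an enzyme of GABA synthesis.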
